A study of Mus musculus with 15 samples.

Results

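Meiotic cohesin and synaptonemal genes are described here in mouse oocytes, as the 10 members Rec8, Smc1b, Smc3, Stag3, Rad21l, Rad21, Sgo2a, Sycp1, Sycp2 and Sycp3 of the 55401 genes counted. They were chosen by symbol for their known function, and their Ensembl identifiers were taken from the GENCODE vM21 annotation of GRCm38. Each library was made from 6 germinal vesicle oocytes of Kunming mice by SMART-Seq2, and the 15 libraries form 5 groups of 3. The IVV group holds oocytes of follicles grown in vivo. The IVG and IVG-NT groups hold oocytes of follicles grown in vitro for 10 days without and with NT-4, a neurotrophin, and IVG day 6 and IVG-NT day 6 hold those grown for 6 days without and with it. Preantral follicles for culture came from mice 12 to 14 days old, all cultures contained FSH according to the methods, and no genetic change is named for any group. The IVV oocytes came from punctured antral follicles, and the methods name mice of more than one age without tying one to this group, so growth in vivo and the age of the animals cannot be told apart.

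Cohesin is a ring of a pair of SMC proteins closed by a kleisin and bound by a STAG subunit, and it holds sister chromatids together from DNA replication until anaphase. In germ cells SMC1B, REC8, RAD21L and STAG3 take the places of SMC1A, RAD21, STAG1 and STAG2, while SMC3 serves in both kinds of ring. The shugoshin SGO2 protects cohesin at the centromere during the first meiotic division. The synaptonemal complex, which joins homologous chromosomes during recombination, is built on axes that hold SYCP2 and SYCP3 and is zipped by SYCP1. In the mouse it is assembled in the fetal ovary, and the cohesin that carries oocytes through their long arrest is loaded there as well.

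Total counts per library ranged from 5954262 to 55593251, and 2 shallow libraries, IVG-NT day 6 replicates 1 and 2 (5954262 and 7125348 counts), stood apart with counts in 13338 and 10991 genes against 15483 to 22966 in the other 13. The annotated rRNA gene CT010467.1 took over 5% of counts in 9 libraries, called rRNA-rich here, namely IVV replicate 3 and, in every cultured group, replicates 1 and 2. Its share was 12.5% to 37.9% there and 0.187% to 0.714% in the other 6, called rRNA-poor. Each group holds both kinds. The 10 oocyte markers were counted in all 15 libraries, at a summed 11034 to 20519 normalized CPM (counts scaled to library size with edgeR's TMM factors), whereas 9 granulosa cell markers summed to 5.05 to 228, 7 theca and stroma markers to 0 to 65.6 and 5 macrophage markers to 0 to 49.2. Granulosa cell markers summed to 103 to 170 normalized CPM in IVV, 46.1 to 228 in IVG and 73.5 to 159 in IVG-NT, and their part in the results was not tested. The libraries carry no molecular identifiers, so limits from counts cover counting error only. According to the methods, the 3 libraries of a group came from 3 replicated experiments. The sources do not say that they all came from separate animals.

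Promoter sequence is shown for Smc3, Sgo2a, Sycp2, Sycp3 and Smc1b, because these 5 members lay apart in every library of IVG against IVV, as described further on. The bases are the 250 before the start of each gene in RefSeq (GRCm38.p6), 5′ to 3′ on the strand of the gene, with capitals for 3 motifs searched on both strands, the E2F core letters GCGGGAA, the E-box letters CACGTG and the GC-box letters GGGCGG. For Sgo2a the window at the annotated gene start is shown.
Smc3 (chr19:53600146-53600395, plus strand): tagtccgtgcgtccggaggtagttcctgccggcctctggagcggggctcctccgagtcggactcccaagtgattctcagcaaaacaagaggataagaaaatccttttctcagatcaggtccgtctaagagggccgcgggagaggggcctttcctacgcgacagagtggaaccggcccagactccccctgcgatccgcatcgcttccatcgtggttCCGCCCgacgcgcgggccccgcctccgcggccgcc
Sgo2a (chr1:57995724-57995973, plus strand): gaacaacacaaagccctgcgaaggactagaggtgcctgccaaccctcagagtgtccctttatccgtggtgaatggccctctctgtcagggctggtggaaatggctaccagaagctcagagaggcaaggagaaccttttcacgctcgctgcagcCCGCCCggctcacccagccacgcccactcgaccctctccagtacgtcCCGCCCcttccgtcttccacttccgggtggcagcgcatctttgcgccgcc
Sycp2 (chr2:178407659-178407908, minus strand): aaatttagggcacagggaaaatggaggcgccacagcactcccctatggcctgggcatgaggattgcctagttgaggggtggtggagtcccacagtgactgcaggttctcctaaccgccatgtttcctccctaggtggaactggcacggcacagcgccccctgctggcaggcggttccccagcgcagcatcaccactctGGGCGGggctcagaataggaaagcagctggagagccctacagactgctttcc
Sycp3 (chr10:88459337-88459586, plus strand): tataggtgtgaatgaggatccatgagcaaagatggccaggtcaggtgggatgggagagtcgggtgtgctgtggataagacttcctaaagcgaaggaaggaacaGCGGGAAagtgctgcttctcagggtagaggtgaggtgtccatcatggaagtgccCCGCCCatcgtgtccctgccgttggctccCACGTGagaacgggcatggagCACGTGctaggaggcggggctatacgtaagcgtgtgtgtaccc
Smc1b (chr15:85131958-85132207, minus strand): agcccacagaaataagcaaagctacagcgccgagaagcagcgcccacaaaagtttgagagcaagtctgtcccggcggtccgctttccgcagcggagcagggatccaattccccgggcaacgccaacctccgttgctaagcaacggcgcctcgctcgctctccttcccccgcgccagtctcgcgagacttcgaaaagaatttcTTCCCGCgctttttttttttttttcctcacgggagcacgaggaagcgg
Sycp3 holds all 3 motifs in the bases shown, with 1 E2F core, 2 E-boxes and 1 GC box. Smc3 and Sycp2 hold 1 GC box each, Sgo2a holds 2, and Smc1b, the member that lay lower, holds 1 E2F core. In the printed bases no motif overlaps another.

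Of the members, 9 of 10 matched the RefSeq promoters and Rad21 did not, and the counts that follow also take in the 50 bases after the start and a further upstream start of Sgo2a, which holds its E2F core. The E2F core letters occurred for 4 of 9 members (Smc1b, Stag3, Sgo2a and Sycp3). That is 4 of their 10 windows, beside 4.6% of all 32851 windows of this length. The E-box letters occurred for 3 of 9 (Stag3, Sycp1 and Sycp3), or 3 of 10 windows, beside 7.15%. The GC-box letters occurred for 5 of 9 (Smc3, Stag3, Sgo2a, Sycp2 and Sycp3), or 5 of 10 windows, beside 35.7%. Rec8 and Rad21l held none of the 3. A match describes letters only, and binding was not measured.

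Of the 10 members, 9 passed the filter on low counts and were tested, and Rec8 did not. REC8, the meiotic kleisin, closes the ring that holds oocyte chromosomes together until the meiotic divisions. Its gene (ENSMUSG00000002324, chr14:55618037-55625395, plus strand) had 4 counts in IVV replicate 2 and 0 counts in each of the other 14 libraries. In those 14 libraries a count of 0 allows at most 3 counts, or 0.0441 to 0.520 normalized CPM. Rec8 mRNA was thus not detectable at this depth in 14 of the 15 pools of 6 oocytes.

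The other kleisins were unequal. RAD21L, a germline kleisin of early meiotic prophase, comes from Rad21l (ENSMUSG00000074704, chr2:151645404-151668533, minus strand), which had 6, 19 and 0 counts in IVV replicates 2, 3 and 4, and 18, 16 and 103 counts in IVG replicates 1, 2 and 3. Rad21l had 54, 44 and 31 counts in IVG-NT, and at day 6 it had 0, 0 and 84 counts without NT-4 and 45, 0 and 125 with it. All groups overlapped, and 4 libraries held no Rad21l count. RAD21, the kleisin of dividing somatic cells that oocytes also use, comes from Rad21 (ENSMUSG00000022314, chr15:51962240-51991747, minus strand). Rad21 had 2246, 1565 and 2220 counts in IVV, 3998, 3616 and 2124 in IVG and 4300, 3146 and 1423 in IVG-NT. At day 6 it had 1867, 1871 and 4037 counts without NT-4 and 35, 69 and 2547 with it. In normalized CPM, Rad21 was 62.4 ± 28.2 (SD, n = 3) in IVV, while IVG had 77.2 ± 37.7 and IVG-NT 88.8 ± 49.1. At day 6 it was 74.3 ± 19.5 (SD, n = 3) without NT-4 and 19.95 ± 18.9 with it. In the last group the pair of shallow libraries had 6.32 and 12.0, while replicate 3 had 41.5.

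**Figure D1:**
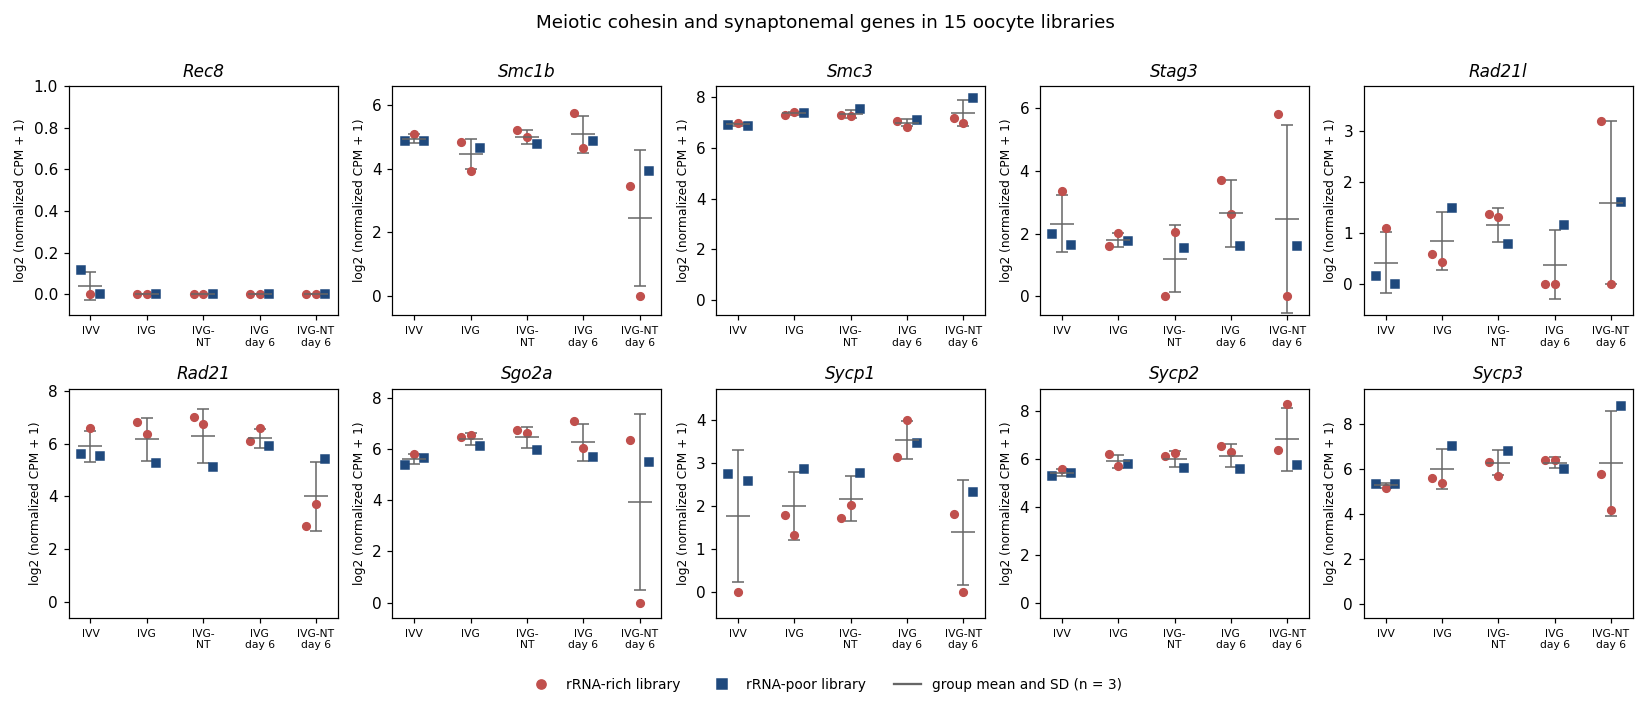
Each panel plots 1 gene, with the 5 groups on the x axis and log2 of normalized CPM plus 1 on the y axis; points are libraries, coloured by kind, and the grey bars are the mean and SD of these log2 values in a group (n = 3). Rec8 lies at 0 in 14 of 15 libraries, and the IVG-NT day 6 group has the widest spread for most members.

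SMC1B and SMC3 form the arms of the meiotic ring. Smc1b (ENSMUSG00000022432, chr15:85064689-85131964, minus strand) had 1345, 547 and 1373 counts in IVV, 982, 628 and 1357 in IVG, 1228, 920 and 1115 in IVG-NT, and at day 6 1454, 465 and 1922 without NT-4 and 55, 0 and 864 with it. Smc1b thus had counts in 14 libraries, and the single 0 fell in a shallow one. Smc3 (ENSMUSG00000024974, chr19:53600398-53645833, plus strand) had 5763, 2097 and 5777 counts in IVV, 5667, 7495 and 9346 in IVG, 5268, 4465 and 7936 in IVG-NT, and at day 6 3656, 2194 and 9215 without NT-4 and 806, 728 and 15242 with it. In normalized CPM Smc3 had the smallest SD relative to its mean of the members in each group, with 121.8 ± 4.95 (SD, n = 3) in IVV and 165 ± 5.43 in IVG.

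STAG3, the meiosis-specific STAG subunit, comes from Stag3 (ENSMUSG00000036928, chr5:138280240-138312393, plus strand). Stag3 had 141, 152 and 103 counts in IVV, 73, 136 and 135 in IVG, 0, 92 and 83 in IVG-NT, and at day 6 340, 101 and 137 without NT-4 and 304, 0 and 127 with it. The 2 libraries at 0 included IVG-NT replicate 1, which was not shallow (40658644 counts). SGO2, the protector of centromeric cohesin, comes from Sgo2a (ENSMUSG00000026039, chr1:57995971-58025899, plus strand). Sgo2a had 1970, 908 and 2458 counts in IVV, 3133, 4159 and 3981 in IVG, 3670, 2952 and 2676 in IVG-NT, and at day 6 3777, 1263 and 3457 without NT-4 and 446, 0 and 2693 with it. Of its 7007 exon bases, 2455 are shared with Kctd18 on the other strand, whose highest library had 19.2 normalized CPM, and Sgo2a also has a paralog, Sgo2b (11100 counts in all libraries), so part of its counts is uncertain. How counting treated strand is not given in the sources used here.

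Among the synaptonemal genes, Sycp1 had far fewer counts than Sycp2 and Sycp3. Sycp1, for the transverse filament (ENSMUSG00000027855, chr3:102818499-102936100, minus strand), had 269, 0 and 245 counts in IVV, 87, 66 and 355 in IVG, 78, 91 and 245 in IVG-NT, and at day 6 215, 291 and 680 without NT-4 and 14, 0 and 245 with it. Sycp2, for an axis protein (ENSMUSG00000060445, chr2:178345293-178407685, minus strand), had 1833, 764 and 2079 counts in IVV, 2610, 2247 and 3096 in IVG, 2332, 2237 and 2056 in IVG-NT, and at day 6 2566, 1484 and 3225 without NT-4 and 457, 1784 and 3264 with it. Sycp3, for the other axis protein (ENSMUSG00000020059, chr10:88459569-88473236, plus strand), had 1890, 575 and 1979 counts in IVV, 1684, 1802 and 7382 in IVG, 2719, 1506 and 4775 in IVG-NT, and at day 6 2344, 1647 and 4286 without NT-4 and 301, 99 and 27140 with it. The highest Sycp3 count of all libraries, that of IVG-NT day 6 replicate 3, equals 442 normalized CPM, against 54.4 and 17.2 in the other 2 libraries of its group. Sycp3 shares 660 of its 1264 exon bases with Chpt1 on the other strand, which reached at most 3.21 normalized CPM in any library.

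Per kilobase of exon, which allows genes to be compared, Sycp3 had the highest mean level of the members in IVV, IVG, IVG-NT and IVG day 6. In IVG-NT day 6 it ranked first through replicate 3 alone, at 350.0 normalized CPM per kilobase, and replicates 1 and 2 averaged 28.3 for Sycp3 and 32.9 for Sycp2. In IVV the level was 30.2 ± 2.32 normalized CPM per kilobase (SD, n = 3) for Sycp3, 22.0 ± 0.893 for Smc3, 14.7 ± 6.66 for Rad21, 7.35 ± 0.732 for Smc1b, 7.09 ± 0.665 for Sycp2 and 6.96 ± 0.996 for Sgo2a. The libraries of Smc3 and Rad21 overlapped, as did those of Smc1b, Sycp2 and Sgo2a, so the order within these is not larger than the spread between replicates. A lower tier followed, with 0.995 ± 0.866 for Sycp1, 0.829 ± 0.678 for Stag3, 0.257 ± 0.381 for Rad21l and 0.00951 ± 0.0165 for Rec8, each overlapping the next. IVG and IVG-NT kept the same upper 6 members and the same lower 4, with Sycp3 at 57.5 ± 39.3 and 64.0 ± 24.0.

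**Figure D2:**
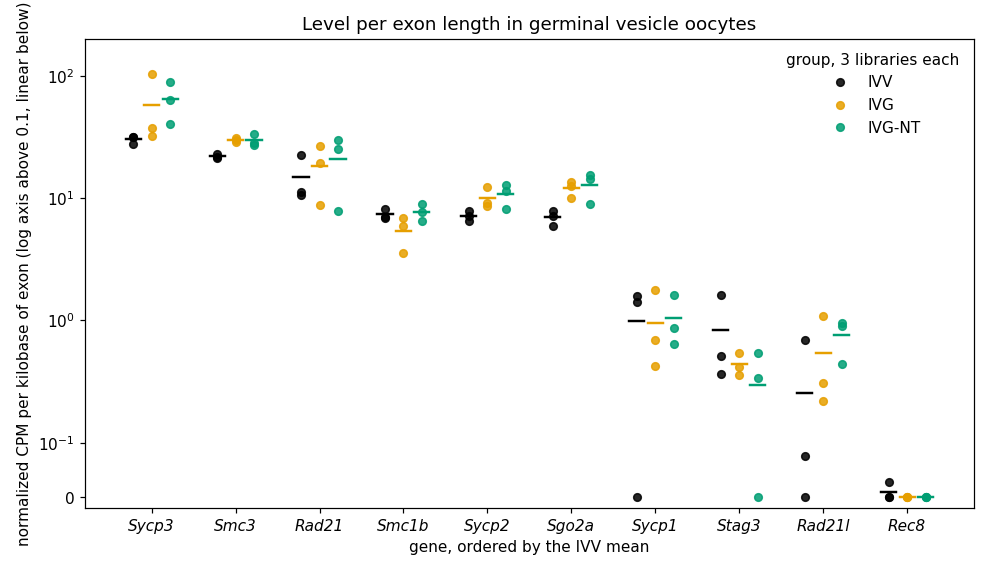
Level in normalized CPM per kilobase of exon (y axis, log scale above 0.1) of the 10 members (x axis) in the IVV, IVG and IVG-NT groups; points are libraries and short lines are group means. Sycp3, Smc3, Rad21, Smc1b, Sycp2 and Sgo2a lie in an upper tier and Sycp1, Stag3, Rad21l and Rec8 in a lower one in all 3 groups.

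The first comparison asks whether oocytes grown in vitro to day 10 hold these mRNAs at the level of oocytes grown in vivo. Against IVV, 4 members of IVG lay higher in every library than in any IVV library (Smc3, Sgo2a, Sycp2 and Sycp3), and Smc1b lay lower in every library. None of these differences passed the threshold for a differentially expressed gene (DEG), a log2 fold change beyond 1 with an unadjusted P under 0.05 in edgeR's quasi-likelihood test. Thus 0 of 9 members were DEGs, beside 2.76% of all 21009 genes tested, and 5 of 9 did not overlap, beside 11.9% of all genes. The same 4 members lay higher in IVG-NT than in IVV, with 0 of 9 DEGs beside 3.29% of all genes, and 4 of 9 not overlapping beside 11.6%. Both comparisons use the same 3 IVV libraries. Theca and stroma markers moved with these comparisons too. The 7 summed to 21.3 to 22.2 normalized CPM in IVV, with 6 or 7 of 7 counted in each library, to 0.562, 1.11 and 37.2 in IVG replicates 1, 2 and 3, and to 3.25 to 5.31 in IVG-NT, wholly below IVV. Their part in the result was not tested. In pools of oocytes, fewer cells with an mRNA and less of it per cell cannot be told apart.

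Sgo2a had 41.3, 55.1 and 49.96 normalized CPM in IVV replicates 2, 3 and 4, 88.0, 94.3 and 70.1 in IVG replicates 1, 2 and 3, and 108.1, 99.9 and 62.6 in IVG-NT. Every day 10 library lay above every IVV library. The log2 fold change in edgeR's quasi-likelihood fit was 0.79 (standard error 1.14, adjusted p = 1) for IVG against IVV and 0.89 (standard error 1.15, adjusted p = 1) for IVG-NT against IVV. This fit shares its estimate of the spread with the day 6 libraries, in one of which Sgo2a was at 0. When the fit was restricted to the 9 libraries of IVV, IVG and IVG-NT and took the kind as a covariate, the values became 0.62 (standard error 0.20) and 0.70 (standard error 0.20), with adjusted p = 0.227 and 0.232 in edgeR's quasi-likelihood test. That setting was chosen after the values had been seen.

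Sycp3 had 39.6, 34.9 and 40.2 normalized CPM in IVV, 47.3, 40.9 and 129.9 in IVG, and 80.1, 51.0 and 111.6 in IVG-NT. The IVV libraries lay close together, whereas in IVG the rRNA-poor replicate 3 lay far above the others and replicate 2 barely above IVV. The log2 fold change was 0.93 (standard error 0.91, adjusted p = 1, edgeR) for IVG and 1.08 (standard error 0.91, adjusted p = 1, edgeR) for IVG-NT against IVV. Among rRNA-rich libraries only, with a single IVV library, the values were 0.36 and 0.94. In the 9 libraries with the kind as a covariate Sycp3 passed the DEG threshold in both comparisons, at 1.02 (standard error 0.31) and 1.29 (standard error 0.31), but the adjusted p of 0.214 and 0.197 (edgeR) did not pass. In that fit 7.68% of all genes were DEGs for IVG against IVV and 8% for IVG-NT against IVV.

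Smc3 had 120.7, 127 and 117 normalized CPM in IVV, 159, 170.0 and 165 in IVG, and 155, 151 and 186 in IVG-NT. The gap between the highest IVV and the lowest day 10 library was wide against the spread within IVV. Its log2 fold change was 0.43 for both comparisons (standard errors of 0.53, adjusted p = 1, edgeR). Sycp2 had 38.4, 46.3 and 42.3 normalized CPM in IVV, 73.3, 51.0 and 54.5 in IVG, and 68.7, 75.7 and 48.1 in IVG-NT. Its log2 fold change was 0.49 (standard error 0.70, adjusted p = 1, edgeR) for IVG and 0.60 (standard error 0.70, adjusted p = 1, edgeR) for IVG-NT against IVV. IVG-NT replicate 3 was only slightly above the rRNA-rich IVV library.

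Smc1b, the germline SMC subunit, went the other way in IVG. It had 28.2, 33.2 and 27.9 normalized CPM in IVV and 27.6, 14.2 and 23.9 in IVG, a log2 fold change of -0.44 (standard error 1.11, adjusted p = 1, edgeR). IVG replicate 1 was only just below the IVV libraries. IVG-NT, at 36.2, 31.1 and 26.1, overlapped both groups. Under size factors of the RLE kind the median log2 fold change of all genes moved from -0.20 to -0.39 for IVG against IVV and from -0.19 to -0.36 for IVG-NT, and the members moved down with it: Smc3 was then at 0.23 and 0.25, and Sgo2a at 0.58 and 0.66. The 4 members lay above the median of all genes under either scaling. Because the scaling moves the members and the median together, this could hardly have come out otherwise and is no separate support.

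**Figure D3:**
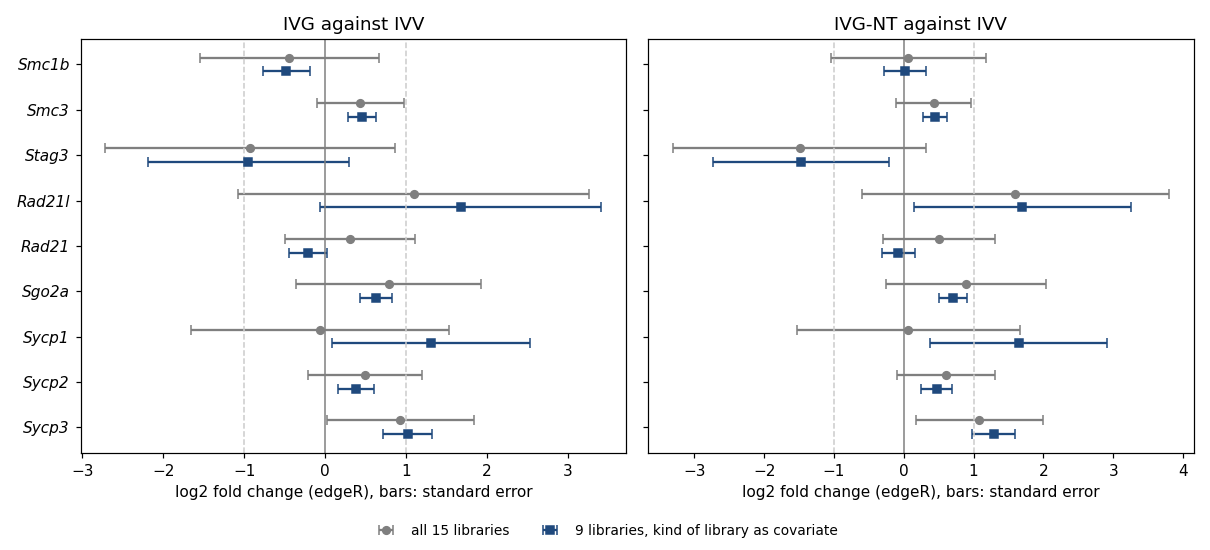
Log2 fold change (x axis) of the 9 tested members (y axis) for IVG and IVG-NT against IVV, with bars of 1 standard error; grey circles come from the fit of all 15 libraries and blue squares from the 9 libraries with their kind as a covariate, and dashed lines mark a log2 fold change of 1. The bars of Sgo2a, Smc3, Sycp2 and Sycp3 are narrower in the smaller fit, and Sycp3 lies beyond 1 in it, while Rad21 and Sycp1, neither of them a DEG, change side of 0 between the fits for IVG.

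The second question is whether NT-4 changes these mRNAs. At day 10, IVG-NT and IVG libraries overlapped for all 9 tested members, so 0 of 9 were apart beside 3.59% of all genes, and 0 of 9 were DEGs beside 1.24%. The log2 fold changes of the members ran from -0.57 to 0.51 with a median of 0.12, beside a median of 0.01 over all genes. Smc1b, of the upper tier, had the highest, at 0.51. The other members of the upper tier lay between -0.01 (Smc3) and 0.20 (Rad21), with standard errors of 0.53 to 1.14.

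At day 6, Smc1b, Rad21 and Sycp1 lay lower in every IVG-NT day 6 library than in any IVG day 6 library, which makes 3 of 9 apart, beside 8.45% of all genes. Of these, Rad21 was a DEG, 1 of 9 members beside 11.6% of all genes. The 10 oocyte markers also lay lower in every IVG-NT day 6 library, at a summed 14215, 11137 and 13433 normalized CPM beside 17745, 20519 and 14944 in IVG day 6, and their part in the result was not tested. Rad21 had 67.2, 96.3 and 59.4 normalized CPM in IVG day 6 and 6.32, 12.0 and 41.5 in IVG-NT day 6, and fell by 1.89 on the log2 scale (standard error 0.83, edgeR unadjusted P = 0.0357, adjusted p = 0.406). Without the 2 shallow libraries, which leaves IVG-NT day 6 with 1 library, the log2 fold change of Rad21 was -0.75 (edgeR, adjusted p = 0.940) and Sycp3 was called instead, at 2.60 (edgeR, adjusted p = 0.928). With that lone library assumed to vary like the others, this fit still gives a test, in which 2.7% of all genes were DEGs. The Rad21 call was also lost with RLE factors (-1.54) and without replicate 1 or 2 of either group, at -1.96 and -1.62 (IVG day 6) and -1.40 and -1.56 (IVG-NT day 6).

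Smc1b had 52.3, 23.9 and 28.3 normalized CPM in IVG day 6 and 9.94, 0 and 14.1 in IVG-NT day 6. All 3 IVG-NT day 6 libraries lay below the others, the deep replicate 3 included, and the log2 fold change was -2.11 (standard error 1.15, adjusted p = 0.474, edgeR). Sycp1 had 7.74, 14.98 and 10.0 normalized CPM in IVG day 6 and 2.53, 0 and 3.99 in IVG-NT day 6, a log2 fold change of -2.31 (standard error 1.68, adjusted p = 0.593, edgeR). Between the deep replicates 3 alone, Smc1b stood at 28.3 and 14.1 normalized CPM, Sycp1 at 10.0 and 3.99, and Rad21 at 59.4 and 41.5. The difference between day 10 and day 6 in the effect of NT-4 was tested itself, and 0 of 9 members passed (edgeR interaction, adjusted p of 0.853 or more). At an unadjusted P under 0.05, 0 members and 1339 genes passed.

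The third question is how the members differ between day 6 and day 10 of culture. Without NT-4, Smc3 lay higher and Sycp1 lower in every day 10 library, which makes 2 of 9 apart, beside 7.42% of all genes, and 0 of 9 members were DEGs beside 2.9%. Smc3 had 132, 113 and 136 normalized CPM at day 6 and 159, 170.0 and 165 at day 10, a log2 fold change of 0.38 (standard error 0.53, adjusted p = 1, edgeR). Sycp1 had 7.74, 14.98 and 10.0 normalized CPM at day 6 and 2.44, 1.497 and 6.25 at day 10, a log2 fold change of -1.68 (standard error 1.64, adjusted p = 1, edgeR). The rRNA-poor replicate 3 had the highest value of the day 10 group.

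With NT-4, Smc1b alone lay higher in every day 10 library, 1 of 9 beside 11% of all genes, at a log2 fold change of 1.95 (standard error 1.15, adjusted p = 0.479, edgeR). Rad21 was the 1 DEG of 9 members, beside 12.7% of all genes. It had 126.6, 106 and 33.3 normalized CPM in IVG-NT and rose by 2.15 on the log2 scale against IVG-NT day 6 (standard error 0.84, edgeR unadjusted P = 0.0200, adjusted p = 0.357), although the rRNA-poor replicate 3 of day 10, at 33.3, lay below that of day 6, at 41.5. Without the 2 shallow libraries Rad21 was at 0.98 (edgeR, adjusted p = 1), and Sycp3 was called instead, at -2.54 (edgeR, adjusted p = 1), in a fit where 2.4% of all genes were DEGs. The Rad21 call was lost as well without replicate 1 or 2 of IVG-NT (1.72 and 1.92) or of IVG-NT day 6 (1.64 and 1.79). After adjustment over all genes, edgeR called 0 genes in each of the 6 comparisons, with 261 to 2661 at an unadjusted P under 0.05, whereas DESeq2's Wald test called 42 to 704.

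The kind of library was tested for each member too. With the group in the model, the kind changed 23.7% of all genes at an adjusted p under 0.05 (edgeR, 15 libraries), and 0 of 9 members. Sycp3 came nearest, at 1.24 on the log2 scale for rRNA-poor minus rRNA-rich (standard error 0.50, adjusted p = 0.0861, edgeR), and passed in the fit with RLE factors (1.39) and by DESeq2 (1.39), beside 25.2% and 37.5% of all genes. In the 7 rRNA-rich libraries that were not shallow, Rad21 ranged from 67.2 to 127 normalized CPM, and in the 6 rRNA-poor ones from 33.3 to 59.4, without overlap. Leaving the shallow libraries out, its difference was -1.07 (standard error 0.24, edgeR unadjusted P = 0.000386), which passed after adjustment beside 28.3% of all genes. In the 9 libraries of IVV, IVG and IVG-NT, Rad21 (-1.41), Sgo2a (-0.46) and Sycp3 (0.84) all passed an adjusted p of 0.05 in edgeR's test, 3 of 9 members beside 43.1% of all genes.

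Within subunit families, counts per kilobase in the same library show which form prevailed, free of the library total. Smc1b made up 36.8%, 53.9% and 36.5% of Smc1a plus Smc1b in IVV replicates 2, 3 and 4, 48.2%, 25.6% and 25.1% in IVG, and 51.2%, 46.9% and 29.8% in IVG-NT. At day 6 the share was 64.8%, 43.9% and 39.4% without NT-4, and 26.8%, 0% and 18.6% with it. Smc1b exceeded Smc1a, which encodes the partner of SMC3 in somatic cohesin, in 3 libraries. The IVG-NT day 6 libraries all lay below those of IVG day 6 and of IVG-NT, by -34.2 points against IVG day 6 (two-sided exact permutation test, p = 0.1, adjusted p = 0.560 over 28 tests). A comparison of 3 libraries with 3 cannot give a smaller p. Same-numbered libraries of IVG and IVG day 6 deviated together. They also share their kind, so pairing and kind cannot be told apart. Within these pairs the Smc1b share of IVG differed from that of day 6 by -16.6, -18.3 and -14.2 points (two-sided exact paired permutation test, p = 0.25, the smallest that 3 pairs allow).

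In IVV, IVG and IVG-NT, Stag3 was a small share of its family, at 9.97%, 14.96% and 6.74% of Stag1 plus Stag2 plus Stag3 in IVV, 2.01%, 2.99% and 7.44% in IVG, and 0%, 2.83% and 6.16% in IVG-NT. IVG-NT lay wholly below IVV (two-sided exact permutation test, p = 0.1, adjusted p = 0.560), and IVG overlapped IVV by the rRNA-poor replicate 3 alone. In IVG day 6 the share was 8.93%, 7.51% and 7.49%, wholly above IVG (two-sided exact permutation test, p = 0.1, adjusted p = 0.560), and in IVG-NT day 6 it was 59.1% and 0% in the shallow libraries and 6.21% in replicate 3. STAG1 and STAG2 are the subunits of somatic cohesin, and Stag1 had 31.9 ± 29.3 normalized CPM (SD, n = 3) in IVV and 52.2 ± 26.2 in IVG, while Stag2 had 29.6 ± 0.945 and 73.9 ± 40.4. Stag1 and Stag2 were both lower in rRNA-poor libraries (log2 differences of -1.69 and -1.63, adjusted p = 0.0175 and 0.0249, edgeR).

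Sgo2a made up 37.9%, 51.4% and 39.6% of Sgo1 plus Sgo2a in IVV, 55.8%, 54.5% and 39.3% in IVG, and 55.0%, 57.2% and 37.5% in IVG-NT. SGO1 is the shugoshin of mitotic centromeres. The paralog Sgo2b was left out of this family, so the share sets Sgo2a against Sgo1 only. Sgo2b had means of 6.01 normalized CPM per kilobase in IVG and 7.31 in IVG-NT, beside 12.0 and 12.9 for Sgo2a (n = 3). At day 6 the Sgo2a share was 61.2%, 42.9% and 27.7% without NT-4, and 19.9%, 0% and 44.1% with it. In IVG-NT day 6 the rRNA-poor replicate 3 thus had the higher share, above both shallow libraries. Within each of the other groups the rRNA-rich libraries had the higher Sgo2a share, and without the 2 shallow libraries the difference of rRNA-poor from rRNA-rich was -17.9 percentage points (exact permutation of kinds within groups, p = 0.0123, the smallest that 81 assignments allow), a setting chosen after the totals had been seen. With all 15 libraries it was -7.44 points (exact permutation, p = 0.333). For the Smc1b share the corresponding differences were -15.8 points (exact permutation, p = 0.0370) and -11.6 points (exact permutation, p = 0.0823). Rec8 held at most 0.254% of the kleisin counts per kilobase. Between groups, no share passed after adjustment over the 28 tests. None could have passed, because 3 libraries against 3 allow no exact permutation p under 0.1.

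**Figure D4:**
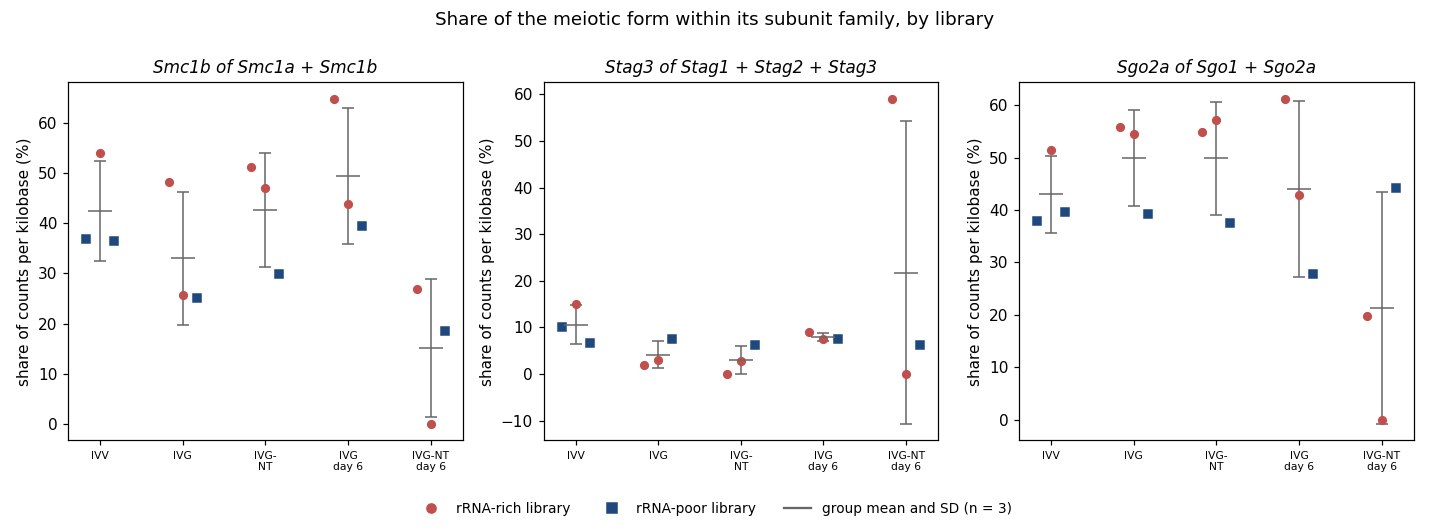
Share (y axis, % of counts per kilobase) of Smc1b, Stag3 and Sgo2a in their subunit families by group (x axis); points are libraries coloured by kind, and the grey bar is the group mean with its SD (n = 3). The Smc1b share is lowest in IVG-NT day 6, and the rRNA-poor libraries of IVV, IVG and IVG-NT have 37.5% to 39.6% of Sgo2a.

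Genes around these members were followed through 4 lists, chosen for function. Rec114, a recombination factor, was counted in the list for meiotic entry. Of 20 genes for cohesin loading, release and cleavage, 11 tested of 13 genes for the synaptonemal complex and axis, 15 tested of 18 for meiotic recombination, and 6 tested of 7 for meiotic entry, 0 were DEGs in IVG against IVV, IVG-NT against IVV or IVG-NT against IVG. In IVG-NT day 6 against IVG day 6, Pds5a (-3.11), a regulator of cohesin on chromatin, Sun1 (-2.44), which tethers telomeres to the nuclear envelope, and Mlh3 (-3.56), a crossover factor, were DEGs. In IVG-NT against IVG-NT day 6, Plk1 (1.61), a kinase of cell division, Ccdc155 (2.28) and Sun1 (2.47), both of the nuclear envelope, and Meioc (4.19), a factor of meiotic entry, were DEGs. Syce3 (5.71), of the synaptonemal central element, was the 1 DEG between IVG and IVG day 6. All of these had adjusted p of 0.357 or more (edgeR). With the lists in the order above, DEGs were 1 of 20, 1 of 11, 1 of 15 and 0 of 6 for IVG-NT day 6 against IVG day 6, beside 11.6% of all genes. For IVG-NT against IVG-NT day 6 they were 1 of 20, 2 of 11, 0 of 15 and 1 of 6, beside 12.7%. Both comparisons include the 2 shallow libraries. For IVG against IVG day 6 they were 0 of 20, 1 of 11, 0 of 15 and 0 of 6, beside 2.9%. The median log2 fold change of the cohesin list was 0.42 for IVG and 0.49 for IVG-NT against IVV, beside -0.20 and -0.19 over all genes tested. The corresponding medians were -0.0025 and 0.04 for the synaptonemal list, -0.23 and 0.03 for the recombination list, and 0.32 and 0.46 for the entry list.

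Several neighbours differed between kinds of library, 10 of 52 tested or 19.2%, beside 23.7% of all genes. At an adjusted p under 0.05 in edgeR's test, Pttg1, for securin, was higher in rRNA-poor libraries by 2.41 on the log2 scale, and Espl1, for the separase that securin holds in check, was lower by a log2 difference of -1.98. Nipbl (-1.15), the cohesin loader, was lower too. Of the synaptonemal list, Syce2 (1.68) and Hormad1 (5.91) were higher in rRNA-poor libraries. Of the entry list, Rec114 (3.04) and Dazl (1.05) were higher and Gm4969 (-4.67) lower. Of the recombination list 0 of 15 passed, but that list leaves out Rec114, a recombination factor. These counts therefore do not set meiotic entry apart from recombination.

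Pearson correlations of log2 CPM over the 15 libraries, which share depth and kind, describe which genes ran most like the members. Sgo2a ran most like Brwd3 (r = 0.994) and Xndc1 (0.991), Smc1b like Pnpla6 (0.982) and Ncbp2 (0.978), Rad21 like Taf4 (0.979) and Bmp2k (0.978), and Sycp1 like A730043L09Rik (0.956) and Tomm70a (0.930). Sycp2 ran most like Phf20l1 (0.953) and Capn1 (0.949), Stag3 like Tmem81 (0.930) and Gm31517 (0.906), Rad21l like Veph1 (0.881) and Gm13414 (0.845), Smc3 like Psmc5 (0.841) and Taf6l (0.831), and Sycp3 like Ptpn2 (0.837) and Hmces (0.796). Without the 2 shallow libraries, r was 0.502 for Smc1b with Pnpla6, 0.130 for Smc1b with Ncbp2 and 0.859 for Sgo2a with Brwd3, but 0.915 for Rad21 with Taf4. Among the members, Sgo2a and Sycp2 had r = -0.759 over 15 libraries and 0.806 over 13, and Smc1b and Sgo2a had 0.963 and 0.415. Smc3 and Sycp3 had 0.713 and 0.722.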

How the data were processed

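After trimming, the authors mapped reads with HISAT2 (mm10), and they deposited raw whole-number counts for each Ensembl gene. How reads were counted per gene, the annotation release and tool versions are not given in the sources used here. A deposited table of the whole series repeats the 15 files and was not used. Groups and replicate numbers come from the sample titles. Of the identifiers, 99.5% have a symbol in GENCODE vM21.

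Counts were filtered (edgeR filterByExpr, minimum count 10), scaled by TMM and tested with the edgeR 4.0.16 quasi-likelihood test, fitting the means of all 5 groups together (R 4.3.3, limma 3.58.1), with Benjamini-Hochberg adjustment over the 21009 genes tested. The DEG threshold is that of the study's methods. DESeq2 1.42.0 was an alternative. Shares used exact permutation tests. The fit was tested on simulated counts with a single spread for all genes and no difference between kinds of library, unlike these data. That test does not show how the fit performs here. Levels per kilobase use the union of exons. Fold changes are given for members that were DEGs or did not overlap between groups, and for some other members in IVG-NT against IVG. Other listed genes are named where they were DEGs. The members and lists were chosen with earlier results of these data known. The 5% rRNA limit followed a look at those shares.

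Same-numbered samples deviated together (r over 0.1 in all 3 pairs) for IVG-NT with IVG (0.370 to 0.732) and for IVG with IVG day 6 (0.147 to 0.538). The replicate block changed no member's call in either. In the cultured groups the kind of library follows the replicate number, so pairing and kind cannot be told apart. With IVV, whose replicates 2 and 3 are of the other kind, r was -0.278 and -0.488 for IVG and -0.329 and -0.522 for IVG-NT.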

Additional observations from a re-analysis of the deposited data

How the results depend on the processing

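The 16 log2 fold changes of members that were DEGs or did not overlap between groups kept their sign in every setting run. Their values include 96 from fits without 1 library. The values given above for IVG-NT against IVG are not among the 16. Of the 16, 15 belong to groups that did not overlap in these same libraries. Leaving out 1 library could hardly change their sign, so the kept signs are no separate support. Rad21 and Sycp1 for IVG against IVV, not among these 16, changed sign in the 9 libraries with the kind as a covariate. The number of members called was less steady. It became 1 for IVG against IVV and for IVG-NT against IVV (Sycp3) in the 9 libraries with the kind as a covariate. For IVG-NT day 6 against IVG day 6, the 1 call became 0 without a filter, with other groups left out of the fit and with the replicate block (Rad21, -1.90), and 2 among rRNA-rich libraries and by DESeq2, and it ran from 0 to 3 when 1 library was left out. For IVG-NT against IVG-NT day 6 it became 2 with RLE factors, 0 with only these groups and 3 by DESeq2, stayed at 1 (Rad21, 2.16) with the replicate block, and ran from 0 to 2 with 1 library left out. For IVG against IVG day 6 it ran from 0 to 1 (Rad21l, without IVG day 6 replicate 3). Between kinds, the 0 members past an adjusted p of 0.05 became 1 with RLE factors, by DESeq2 and without the shallow libraries, and 3 in 9 libraries, and ran from 0 to 1 (Rad21, without IVG-NT day 6 replicate 3) with 1 library left out. Without IVG-NT day 6 replicate 1 the difference of Sgo2a between kinds reversed to 0.048, so the 15 values that left out 1 library ran from -0.58 to 0.048. Among rRNA-rich libraries only, the Stag3 share moved to -12.5 points (IVG minus IVV) and -13.5 (IVG-NT minus IVV), and the Sgo2a share to 46.1 (IVG-NT minus IVG-NT day 6). Without the shallow libraries the Sgo2a share differed by 0.171 points (IVG-NT day 6 minus IVG day 6) and 5.72 (IVG-NT minus IVG-NT day 6). Within pairs, no share gave an exact paired permutation p under 0.25, the smallest that 3 pairs allow. The cause was not tested. Members of the lower tier most often lacked a count: Rec8, Rad21l, Stag3 and Sycp1 had 0 counts in 14, 4, 2 and 2 libraries. Some of these libraries were deep, such as IVV replicate 4 for Rad21l (43465801 counts in all) and IVG-NT replicate 1 for Stag3 (40658644). The part of depth in these zeros was not tested.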
